A study of Bos taurus and Ovis aries and Capra hircus with 9 samples.

Results

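Of 8968 genes shared by cattle, sheep and goats and measured in liver, 64 were set apart in sheep alone, 49 of them higher and 15 lower than in both other species. Shared genes had been found by matching the lengths of internal exons in order between the gene models of the 3 species, which gave 10381 genes in all, and 8968 of these passed a filter on low values. A gene was taken when its 3 sheep values all lay at least 4-fold above, or all at least 4-fold below, each of the 6 cattle and goat values, with a level of at least 5 CPM (read counts scaled to the size of the library) on the higher side. Genes with more than 50% of their exon length under the exons of another gene were left out, as was cattle chromosome 23 from 25 to 29 Mb. The genes were thus selected on CPM after scaling by TMM (trimmed mean of M values), relative to the scaled total of the shared genes. Because the sheep values chose the genes, the difference of sheep from the other species is given as a description without a test.

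Liver RNA was sequenced from 3 animals of each species, with 1 library per animal, called A, B and C. The cattle were of the Holstein breed, the sheep Texel and the goats Yunnan black. The animals were healthy adults, the cattle 3 to 4 years old and the sheep and goats 2 to 3 years old, and they had no treatment or engineered allele. Each species was represented by 1 breed, so that species, breed and the genome annotation used for counting cannot be told apart. In whole liver, fewer cells of a type and less RNA per cell cannot be told apart either.

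The mammalian liver makes plasma proteins and bile, takes up and releases fat, and clears drugs and ammonia. In ruminants it also makes glucose without pause, mainly from the propionate that rumen microbes release, because little glucose is absorbed from the gut. RNA-seq counts a gene through its annotated exons, so a count follows both the amount of RNA and the gene model on which the reads were counted. Sheep and goats are close relatives, and cattle belong to a more distant branch of the same family. The tables gave Ensembl identifiers without symbols, and 0 of 27607 cattle identifiers matched the available RefSeq table, so the genes are given here by position in the cattle genome (ARS-UCD1.2) and the widest gaps by identifier. The lists of liver functions and of cell type markers could not be applied for the same reason, and the tissue label was not checked against markers.

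The total counts on genes ran from 16507706 in goat replicate C to 61105490 in cattle replicate C. A count of 3, taken as the floor, corresponded to between 0.0814 and 0.218 CPM, a limit for counting error only. Goat replicate C had a TMM factor of 1.56, and the other libraries lay between 0.844 and 1.09. Without goat replicate C the rule took 83 genes, among them 60 of the 64.

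The gap between sheep and the other species was measured as the lowest CPM on the higher side over the highest CPM on the lower side. The rule puts it at 4 or more for each of the 64 genes, which made up 0.714% of the genes tested. Its median was 8.21 among the higher genes and 8.39 among the lower genes. In cattle, 27 of the 49 higher genes were under 1 CPM in every library, and in goats 13 were. Among the lower genes, 5 of 15 were under 1 CPM in every sheep library.

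**Figure D1:**
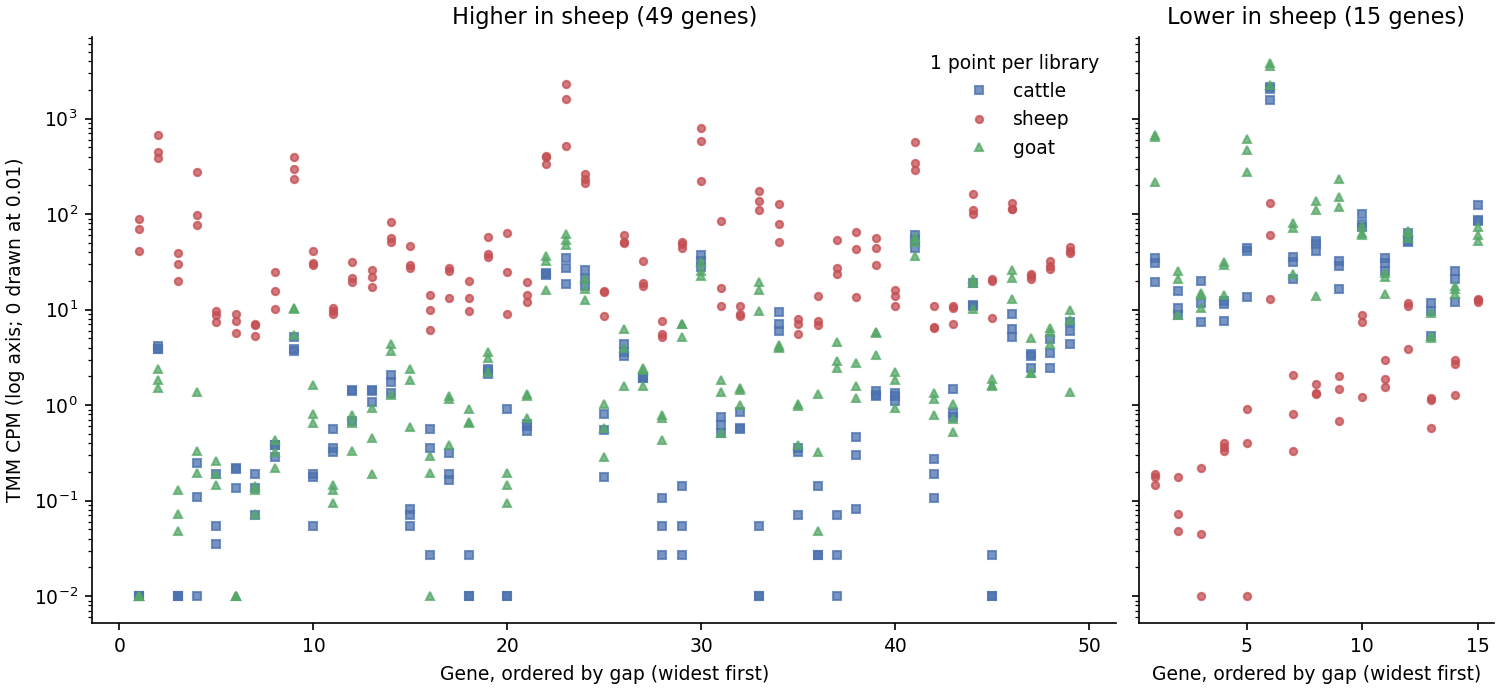
TMM CPM on a log axis for each of the 64 genes (1 column per gene, ordered by gap within each panel), with 1 point per library for cattle (squares), sheep (circles) and goats (triangles). Sheep libraries lie above the other 6 in the 49 columns on the left and below them in the 15 on the right, as the rule requires, and 11 of the higher genes have a sheep mean over 100 CPM.

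The widest gap belonged to ENSBTAG00000019732, on chromosome 8 from 6959642 to 7165342. It was at 70.3, 41.4 and 89.7 CPM in sheep replicates A, B and C. No read was assigned to it in any cattle or goat library, so the sheep values were at least 190.0 times the largest floor of those libraries. Its sheep model had 18 exons, against 14 in cattle and 15 in goats.

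ENSBTAG00000000955, on chromosome X from 55642103 to 55717924, was at 443, 675 and 383 CPM in the sheep libraries. Its levels were 3.90, 3.88 and 4.12 CPM in cattle and 1.81, 2.40 and 1.496 CPM in goats. The gap was 93.0, and the sheep values did not come near those of the other species. The sheep model held 26 exons and 4725 bases, where the cattle model held 9 exons and 2356 bases and the goat model 8 exons and 1661 bases.

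The third gene by gap lay on chromosome 17 from 46727461 to 46762107. It was at 29.9, 19.8 and 39.4 CPM in sheep. It had 0 counts in the cattle libraries and 0.0477, 0.0726 and 0.130 CPM in goats, under the goats' floor. Its models were alike in exon number, with 20 exons in cattle, 20 in sheep and 23 in goats.

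A gene on chromosome 5 from 75415497 to 75433378 followed, at 97.3, 276 and 76.5 CPM in sheep. Its highest value elsewhere was 1.38 CPM, in goat replicate B. The next 3 in order were low in sheep as well, with sheep means of 8.62 ± 1.07 (SD, n = 3) CPM on chromosome 11 (102485125 to 102638859), 7.44 ± 1.69 CPM on chromosome 13 (54119668 to 54125427) and 6.49 ± 0.984 CPM on chromosome 21 (41526381 to 41540316). They passed through the sheep values alone, since their highest cattle or goat value was 0.260 CPM, in goat replicate C of the chromosome 11 gene.

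Among the lower genes the widest gap, 101.0, belonged to ENSBTAG00000011987, on chromosome 10 from 86908115 to 86916703. Its levels were 0.145, 0.178 and 0.191 CPM in sheep. They were 31.1, 34.8 and 19.3 CPM in cattle and 638, 672 and 217 CPM in goats. Sheep and cattle models both had 5 exons and 651 bases, and the goat model had 5 exons and 2643 bases. Between its flanking shared genes an unshared sheep gene on the same strand was at 30.1 CPM, beside the cattle mean of 28.4 CPM for the member.

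ENSBTAG00000004594, on chromosome 15 from 6143194 to 6153615, was at 0.0725, 0.178 and 0.0477 CPM in sheep. It was at 10.5, 15.7 and 8.73 CPM in cattle and at 8.83, 20.8 and 25.2 CPM in goats, so the cattle and goat libraries overlapped. The gap was 48.9. An unshared sheep gene on the same strand beside it was at 7.46 CPM, against a cattle mean of 11.6 CPM for the member. That sheep gene had 1193 bases. Cattle and goats had unshared genes on that strand too, the highest at 281 CPM (1197 bases) and 53.8 CPM (360 bases). Which of the cattle and goat genes the unshared sheep gene corresponds to was not tested.

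**Figure D2:**
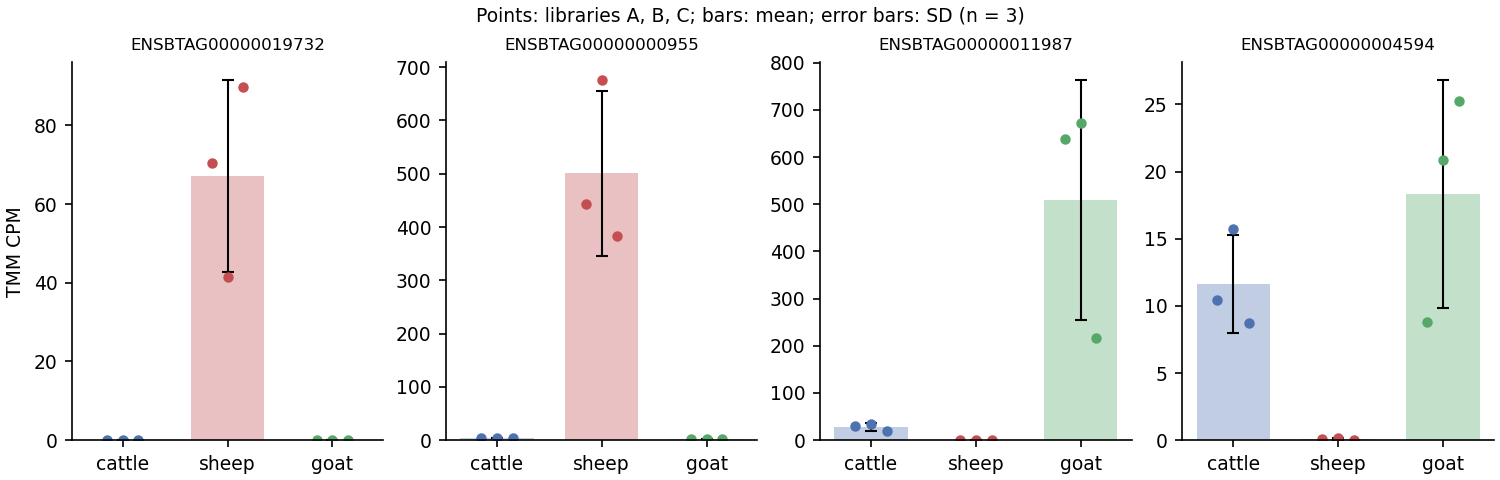
TMM CPM of the 2 genes with the widest gap in each direction, with points for libraries A, B and C, bars for the mean and error bars for the SD (n = 3) in cattle, sheep and goats. The sheep means are 67.1 and 500.5 CPM in the 2 higher genes and 0.171 and 0.0995 CPM in the 2 lower genes, and the goat mean of ENSBTAG00000011987 (509 CPM) exceeds its cattle mean (28.4 CPM).

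One of the lower genes, on chromosome 11 from 77885935 to 77927967, was abundant in the other species. It was at 2123, 2055 and 1584 CPM in cattle and 3556, 3790 and 2267 CPM in goats. In sheep replicates A, B and C it was at 132, 13.0 and 59.97 CPM, a 10.1-fold range within the species. Per kilobase of annotated exon its sheep level ranked at percentile 73.4 of the genes tested, against percentile 96.0 in cattle and 96.1 in goats. The sheep model had 17 exons and 2478 bases, against 29 exons and 14179 bases in cattle and 30 exons and 17212 bases in goats, and its gap per kilobase was 2.10.

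The members at the threshold differed little from the genes that missed it. Just inside, the higher genes had gaps of 4.01 (chromosome 26, 19336344 to 19358875) and 4.21 (chromosome 19, 56205866 to 56217750), and the lower genes 4.03 (chromosome 2, 126666827 to 126704429) and 4.09 (chromosome 22, 32535096 to 32575454). Just outside, the ratios were 3.96 and 3.95 above and 3.98 and 3.92 below.

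The spread within sheep was wide for some members. The highest sheep value was more than 2 times the lowest in 15 of 49 higher genes and 8 of 15 lower genes, and 2 further lower genes had a sheep library at 0. Over all tested genes the median of this ratio was 1.59, and over the 64 genes it was 1.71. Among the higher genes, sheep replicate B was the highest of the 3 in 23 genes, A in 15 and C in 11. With the chromosome 11 gene, 2 others had the widest ranges: one on chromosome X (33093515 to 33213252) was at 84.3, 16.99 and 10.8 CPM in sheep, and one on chromosome 10 (92473239 to 92511524) was at 8.88, 1.204 and 7.40 CPM.

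A pair of large genes on chromosome 19 was high in all sheep but uneven among them. They were picked out after their values had been seen, for their sheep level. The first, from 50775674 to 50796012, had the highest sheep mean of the 64 genes in CPM and was at 2330, 1589 and 513 CPM in sheep A, B and C. It lay between 18.4 and 35.1 CPM in cattle and between 47.9 and 61.6 CPM in goats, and its models had 42, 42 and 43 exons in cattle, sheep and goats. The second, from 13441162 to 13726679, was at 802, 588 and 225 CPM in sheep, between 27.7 and 37.8 CPM in cattle and between 22.6 and 31.8 CPM in goats, with 59, 58 and 52 exons. In both genes the 3 sheep stood in the same order, and their gaps per kilobase were 12.3 and 4.95.

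The rule did not compare cattle with goats, but it held both on 1 side of sheep, and 16 of the 49 higher genes passed the filter on low values only through the sheep libraries. Among the 48 genes that cattle and goat libraries alone let through, cattle and goats differed in 20 (41.7%; edgeR quasi-likelihood test on all 9 libraries, Benjamini-Hochberg adjusted p under 0.05), 4 higher and 16 lower in cattle. Over all genes that passed in that way 52.9% were called, 25.9% higher and 27.0% lower in cattle. Over the 64 genes the count was 28 (43.8%, against 52.7% of all genes tested), 6 higher and 22 lower in cattle, against 25.5% and 27.2% of all genes, and 8 of these 28 had passed through sheep alone. The median log2 difference, cattle over goats, was -0.63 in the 64 genes and -0.05 over all genes, and its median size regardless of direction was 0.995 and 0.961. With the filter met by cattle and goats alone, the medians were -0.63 and -0.04, and the median sizes 0.877 and 0.953. Among the genes higher in sheep, 23 of 49 were called, 5 higher and 18 lower in cattle. Of the 33 higher genes that cattle and goat libraries alone let through, 15 were called, 3 higher and 12 lower in cattle. Among those lower in sheep, 5 of 15 were called, 1 higher and 4 lower in cattle.

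Many of the values compared here were low. With a CPM over 1 required in every library, only 25 of the 64 genes were tested and 4 were called, while 50.8% of all genes passed under that filter. With a 2-fold threshold, 16 of the 64 genes (25%) were called, against 24.6% of all genes. The 64 include those that passed the filter through sheep alone.

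By the fitted log2 difference, the 3 genes with the largest excess of goats over cattle were higher in sheep. Cattle had at most 2 counts in each of their libraries there, so the order of the 3 depends on the fit and no fold is given. A gene on chromosome 8 from 75135968 to 75154388 was at 0, 0 and 0.0546 CPM in cattle, at 9.59, 19.7 and 16.1 CPM in goats and at 111, 139 and 173 CPM in sheep (edgeR adjusted p = 2.28e-06). The 3 species did not overlap, with cattle at the floor, goats between and sheep highest. The gene on chromosome 11 from 14324110 to 14370453 had the same order, with 0, 0 and 0.0273 CPM in cattle, 1.57, 1.89 and 1.63 CPM in goats and 20.1, 8.20 and 21.0 CPM in sheep (edgeR adjusted p = 4.52e-05). Its model had 5 exons and 765 bases in each of the 3 species. The third, on chromosome 5 from 103546873 to 103554354, was at 0.0709, 0 and 0.0273 CPM in cattle, 2.91, 4.57 and 2.47 CPM in goats and 23.8, 54.2 and 27.5 CPM in sheep (edgeR adjusted p = 3.21e-05). Another on chromosome 5, from 65398362 to 65500279, was added after its values had been seen: goats were at 7.06, 7.12 and 5.14 CPM, cattle at 0.142, 0.0542 and 0.0273 CPM and sheep at 48.8, 44.6 and 51.0 CPM (edgeR adjusted p = 2.47e-06).

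On the side with cattle above goats, 2 of the 3 genes with the largest fitted difference rested on goat levels that were not detectable at this depth. The chromosome 13 gene from 54119668 to 54125427 was at 0.213, 0.136 and 0.218 CPM in cattle and had 0 counts in the goat libraries, whose floor lay between 0.143 and 0.218 CPM. On chromosome X from 50887515 to 50906397, cattle were at 0.355, 0.570 and 0.327 CPM and goats at 0.0954, 0.145 and 0.130 CPM, which is 2 counts in each goat library and under their floor. Both genes passed the filter through sheep alone. On chromosome 1 from 66294136 to 66349798, cattle were at 1.45, 1.08 and 1.39 CPM and goats at 0.191, 0.944 and 0.455 CPM (log2 1.36 ± 0.48 SE; edgeR adjusted p = 0.0333).

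Among the lower genes, goats exceeded cattle by a wide margin in 3. For ENSBTAG00000011987 the log2 difference, cattle over goats, was -4.16 ± 0.45 (SE; edgeR adjusted p = 4.20e-05), and with exon length as an offset it was -2.14. A gene on chromosome 9 from 70835488 to 70854194 was at 40.7, 44.6 and 13.6 CPM in cattle, 473, 616 and 278 CPM in goats and 0.906, 0.401 and 0 CPM in sheep (log2 -3.79 ± 0.68 SE; edgeR adjusted p = 0.000936). Another on chromosome 1 from 108807496 to 108849597 was at 31.9, 16.4 and 28.8 CPM in cattle, 233, 152 and 120 CPM in goats and 0.688, 2.01 and 1.48 CPM in sheep (log2 -2.71 ± 0.40 SE; edgeR adjusted p = 0.000289). In these 3 genes no goat library overlapped a cattle library. For ENSBTAG00000000955 cattle were above goats by 1.06 ± 0.31 (SE) on the log2 scale (edgeR adjusted p = 0.0139), and with exon length as an offset this difference was 0.56 and no longer passed. For ENSBTAG00000004594 the test did not pass (log2 -0.65, edgeR adjusted p = 0.209). With exon length as an offset its sign turned (0.59), and leaving out 1 library moved it between -1.06 (without goat replicate A, where it passed) and -0.34 (without goat replicate C).

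**Figure D3:**
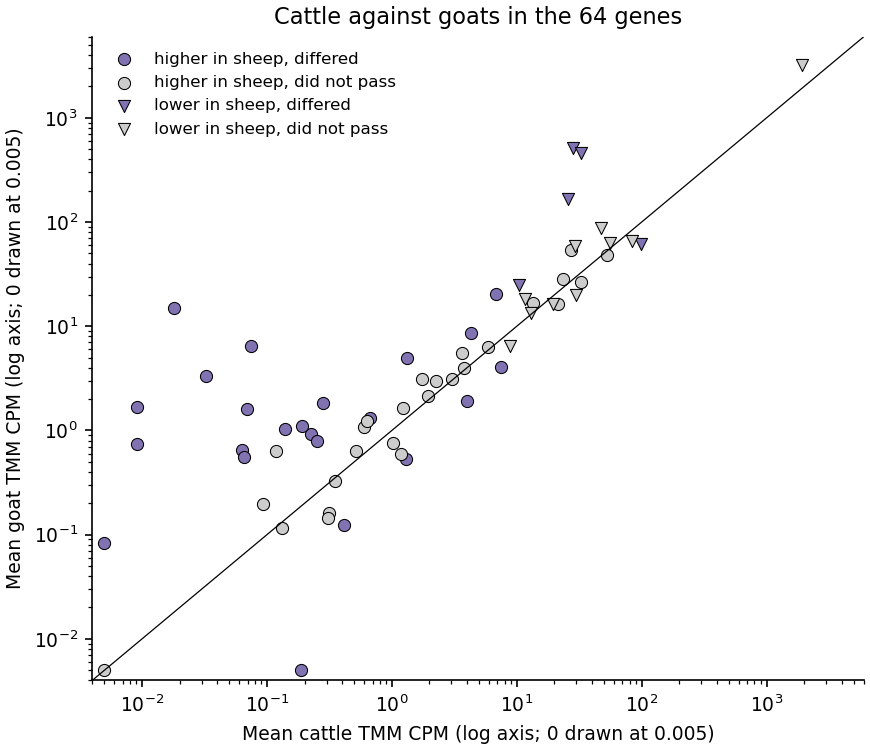
Mean TMM CPM in goats against cattle on log axes for the 64 genes, as circles for genes higher in sheep and triangles for genes lower in sheep, filled dark where cattle and goats differed at an adjusted p under 0.05 (28 genes). The diagonal marks equal means, and 22 of the 28 dark symbols lie on the goat side of it. Among the 48 genes that cattle and goat libraries alone let through the filter, 20 differed, 16 of them lower in cattle. Over all genes tested 52.7% differed, and 27.2% were lower in cattle.

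The gene models of the lower genes were unlike those of other shared genes. The sheep model had the smallest annotated exon length of the 3 in 13 of 15 lower genes, compared with 42.8% of all genes tested. It was under 0.5 times the length of both others in 8 of 15, compared with 4.59% of all genes. The median length ratio was 0.488 for sheep over cattle and 0.292 for sheep over goats, where all genes had medians of 0.768 and 1.

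The last exon differed as well. It was shortest in sheep in 13 of 15 lower genes, compared with 32.2% of all genes. Its median length in the lower genes was 160 bases in sheep, 1237 in cattle and 3365 in goats. The gene on chromosome 10 from 92473239 to 92511524 had the longest cattle last exon of the 15, with 9 exons in each species and last exons of 4226, 108 and 4004 bases in cattle, sheep and goats.

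Per kilobase of exon, 7 of 15 lower genes kept a 4-fold gap, and in 2 the sheep libraries then overlapped those of the other species. The 7 were ENSBTAG00000011987 at 101.0, the other member on chromosome 10 near it at 16.0, ENSBTAG00000004594 at 15.9, the chromosome 9 gene at 12.9, a gene on chromosome 23 (14951493 to 14963734) at 9.03, the chromosome 1 gene at 6.22 and a gene on chromosome 6 (98289617 to 98360326) at 4.41. The gene at the threshold on chromosome 2 had a gap of 4.03 in CPM and 0.781 per kilobase, which means that its groups overlapped. Whether missing 3' sequence in the sheep models accounts for the lower counts was not tested.

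**Figure D4:**
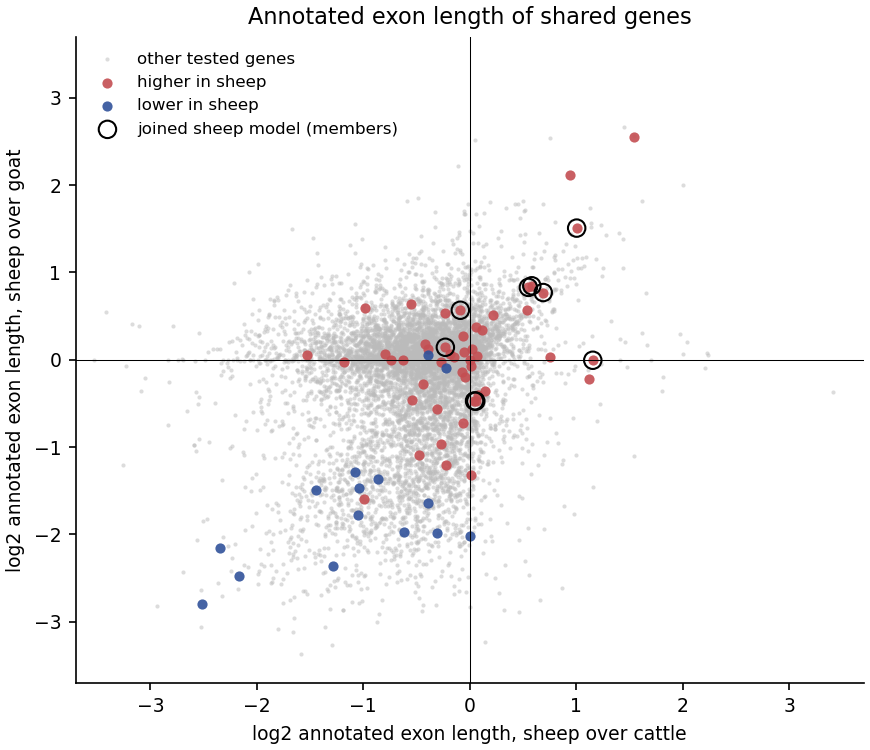
Log2 of the annotated exon length of sheep over goat against sheep over cattle for the genes tested (grey), the 49 genes higher in sheep (red) and the 15 lower (blue), with circles around the 9 higher genes whose sheep model also held exons of a neighbouring gene. The lower genes sit mostly at the lower left, where the sheep model is the shortest, and the median ratios are 0.488 and 0.292.

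The models of the higher genes were closer in length to those of the other species. The median length ratios were 0.957 for sheep over cattle and 1.03 for sheep over goats, and 44 of 49 higher genes kept a 4-fold gap per kilobase. In 9 of 49, the sheep model also held at least 3 internal exons that matched, in length and order, those of a neighbouring cattle or goat gene. This was so in 0.914% of all genes tested and in 0 of the 15 lower genes. The reverse, a cattle or goat model with the exons of a sheep neighbour, occurred in 0 of the 64 genes and in 0.190% of all genes. The sheep gene spanned over 1.5 times both others on the chromosome in 8 of 49 higher genes, compared with 4.10% of all genes.

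When the counts of the neighbour were added to those of the partner gene, the sheep values were no longer 4-fold above in 7 of the 9. ENSBTAG00000019732 was one of them. The neighbour of its cattle partner, on chromosome 8 from 6787675 to 6824508, was at 28.1, 22.6 and 12.7 CPM, and that of its goat partner at 3.48, 3.49 and 0.846 CPM. Against the summed values the gap fell from at least 190.0 to 1.47, with the sheep libraries still above the others.

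For the gene on chromosome 1 from 136814837 to 136869560 the sheep model had 47 exons, of which 18 matched the neighbour, against 27 and 28 exons in the partners. Sheep were at 410, 338 and 395 CPM and cattle at 23.1, 24.3 and 23.3 CPM for the partner alone. With the neighbour added, cattle rose to 248, 293 and 250 CPM and goats to 505, 753 and 351 CPM, so the groups overlapped. The gene on chromosome 2 from 61636892 to 61799766 had 39 exons in sheep, against 28 in cattle and 27 in goats. Its sheep values of 231, 262 and 212 CPM stood against summed values of 230, 232 and 260 CPM in cattle and 196, 218 and 151 CPM in goats.

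On chromosome 3 from 81994568 to 82051985 the gap went from 22.7 to 1.103, and in the other 3 (on chromosomes 15, 21 and 13) it came to 0.760, 0.456 and 0.316, with overlap of the groups in each. The remaining 2 of the 9 stayed over 4-fold. For ENSBTAG00000000955 the neighbour was at 9.80 ± 3.06 CPM (SD, n = 3) in cattle and had no matched counterpart in goats, and the gap was 24.1 after the sum. That neighbour matched 3 exons, while the sheep model held 26 exons against 9 in cattle and 8 in goats. Unshared genes on the same strand beside it, at up to 45.2 CPM in cattle and 64.7 CPM in goats, were not added. The sum is thus no full correction for joining. For a gene on chromosome 19 from 9281063 to 9297960 the gap after the sum was 4.21. Which of the joined genes the sheep reads came from was not tested.

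**Figure D5:**
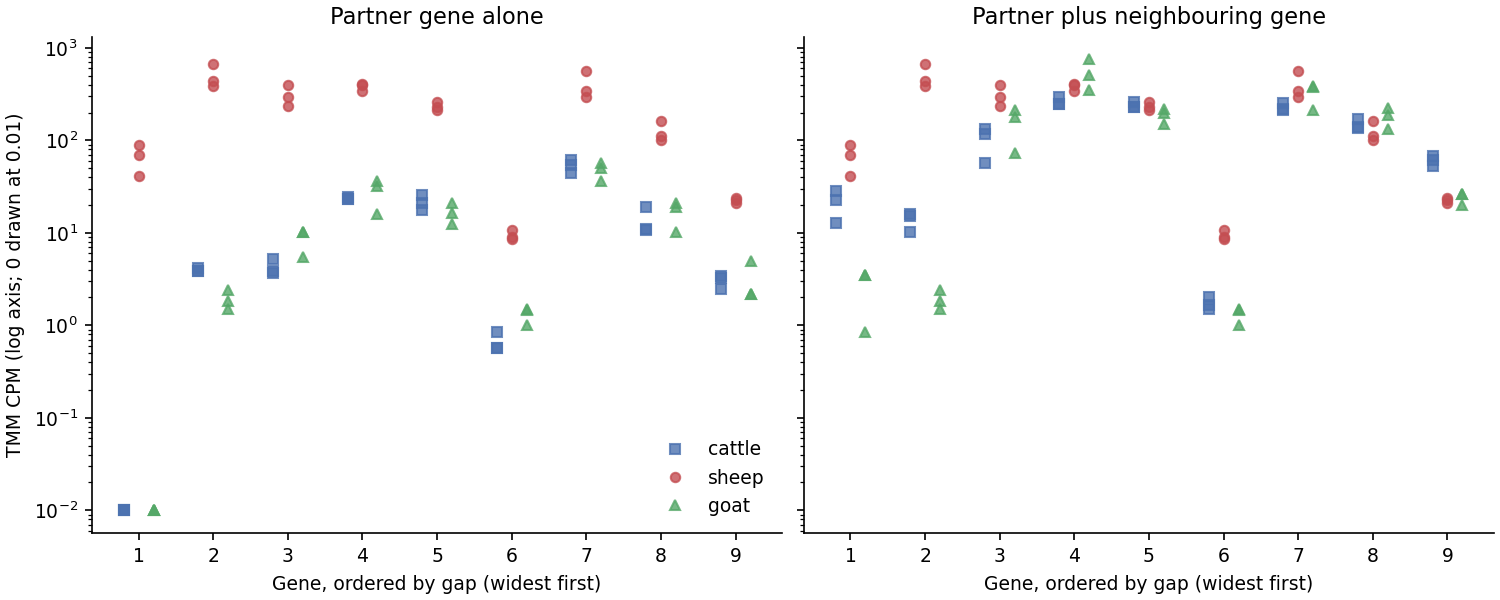
TMM CPM on a log axis of the 9 higher genes whose sheep model held exons of a neighbouring gene, with 1 point per library, for the partner gene alone (left) and for the partner plus its neighbour in cattle and goats (right). The sheep points are the same in both panels, and they stay over 4-fold above the rest only in columns 2 and 6 on the right, with gaps of 24.1 and 4.21.

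Genes that were not among the shared genes lay beside some members. On the same strand between the flanking shared genes, an unshared gene reached 0.25 of the sheep mean in cattle for 18 of 49 higher genes and in goats for 17 of 49, where 22.2% and 22.8% of all genes tested had such a gene. These counts did not ask whether sheep had such a gene as well. For some members they did, as beside the chromosome 5 gene from 75415497 to 75433378 (258 CPM in cattle, 685 in goats and 914 in sheep). For the lower genes, an unshared sheep gene reached 0.25 of the lower of the cattle and goat means in 5 of 15, compared with 24.7% of all genes. The 3 lower genes with the widest gaps, among them both that are given by identifier, were in the 5. These genes were not matched to the members, so their part in the result was not tested.

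With a 4-fold gap per kilobase, no joined model and no such unshared gene, 28 of the 64 genes were left, 24 higher and 4 lower. They were sorted out after the values had been seen and get no test as a list. Of the 28, 19 passed the filter through cattle and goats alone, and cattle and goats differed in 12 of these (2 higher and 10 lower in cattle), where 52.9% of all genes did. Among the 24 were the gene on chromosome 17 with 0 counts in cattle, the large pair on chromosome 19 and the chromosome 11 gene with 765 bases in each model. Also among them was a gene on chromosome 29 from 50562017 to 50567664, with 15, 15 and 16 exons, at 132, 114 and 113 CPM in sheep, 5.14, 6.29 and 9.11 CPM in cattle and 12.8, 21.6 and 26.2 CPM in goats. The 4 lower genes were those on chromosomes 1, 6, 9 and 23.

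The chromosome 6 gene had 12 exons in each species. It was at 2.07, 0.803 and 0.334 CPM in sheep, 35.3, 21.1 and 31.5 CPM in cattle and 71.8, 80.4 and 23.5 CPM in goats. Cattle and goats overlapped there. The chromosome 23 gene, outside the region left out, was at 0.362, 0.401 and 0.334 CPM in sheep, at most 12.3 CPM in cattle and at least 14.4 CPM in goats. In CPM, cattle were lower than goats by a log2 difference of -1.27 ± 0.34 (SE; edgeR adjusted p = 0.00902). The goat model had 6417 bases, against 2005 in cattle. Per kilobase of exon the mean was 5.18 in cattle and 3.91 in goats, so cattle were then the higher.

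The 64 genes were spread over 26 chromosomes. Chromosome 19 held 7, all higher in sheep, or 1.24% of the genes tested there. Chromosome 8 held 5, all higher, and chromosome X 4, all higher, or 1.60% and 1.90% of those tested. The 3 members on chromosome 10 were all lower.

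Members lay next to each other in the order of shared genes in only 2 places. On chromosome 10, a gene from 86764090 to 86898356 lay 9759 bases before ENSBTAG00000011987 on the opposite strand. It was at 0.217, 0.0446 and 0 CPM in sheep, 19.995, 11.7 and 7.36 CPM in cattle and 10.4, 15.1 and 14.2 CPM in goats, and an unshared sheep gene on its strand was at 15.8 CPM, beside its cattle mean of 13.0 CPM. With the 30.1 CPM beside ENSBTAG00000011987, both members had an unshared sheep gene at about their cattle level next to them. On chromosome X, the genes from 50887515 to 50906397 and from 50913541 to 50956043 lay 7144 bases apart on opposite strands. The first was at 10.3, 9.68 and 8.98 CPM in sheep and the second at 13.3, 9.59 and 20.1 CPM. In the second, goats were at 0.668, 0.653 and 0.911 CPM and cattle at 0, 0.0271 and 0 CPM. Both passed the filter through sheep alone.

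The shared genes beside the members were compared to see whether whole neighbourhoods stood apart in sheep. Of 124 genes next to a member on either side, 17 differed in sheep from both cattle and goats in 1 direction (13.7%; edgeR, adjusted p under 0.05 in both comparisons), close to the 12.0% of all genes tested. Of the 124, 12 were called higher and 5 lower in sheep, against 6.27% and 5.73% of all genes. In 15 of 128 pairs of a member and a neighbour the neighbour was called in the direction of the member. This is a larger share than the 6.27% or 5.73% of all genes called in a given direction. With 2 shared genes on each side it was 20 of 256 pairs, and without sheep replicate B 8 of 128. Why the share was larger was not tested. The 17 called neighbours fell to 10 without sheep replicate A, 10 without sheep replicate B and 9 without sheep replicate C. They fell to 11 without cattle replicate B and 11 without goat replicate B. In these 5 settings the share over all genes fell to between 8.89% and 9.71%.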

How the data were processed

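Livers of 3 cattle, 3 sheep and 3 goats gave 1 poly-A RNA-seq library each, and groups and replicate letters come from the labels. The authors trimmed reads with Trimmomatic 0.39, mapped them with STAR 2.7.6 to the Ensembl genomes (ARS-UCD1.2, Oar_rambouillet_v1.0 and ARS1, while the submitters' processing notes name ARS-UCD1.2 for each sample) and deposited raw counts per gene from featureCounts, with exon positions and annotated exon length. How strand and paired reads were handled in counting is not given in the sources used here, so reads of overlapping or antisense genes cannot be told apart, and genes with near-identical copies are uncertain.

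Shared genes were reciprocal best matches in all 3 species pairs by ordered internal-exon lengths: a score 1.05 times the next best, at least 2 internal exons and 50% of the shorter list matched, and at least 2 other pairs within 10. On a simulated copy of the cattle annotation, with genes and exons lost and exon lengths changed, 90.9% of 12627 genes were recovered and 5 pairs were wrong. The copy kept the gene order and held no joined models, so it gives no error rate between species. Genes with TMM CPM over 1 in at least 20% of libraries (2 of 9) were tested by quasi-likelihood in edgeR 4.0.16 (R 4.3.3), all libraries in one fit, with Benjamini-Hochberg adjustment over all 8968. On simulated counts, 159 of 200 genes changed 4-fold between cattle and goats were called, with 10 others. Smaller changes were not simulated. A joined sheep model held at least 3 internal exons of a gene up to 3 genes away. Alternatives were DESeq2 1.42.0, RLE scaling, other filters, exon length, thinned libraries, other limits of the rule, the replicate block and leaving out each library.

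Members and lists were chosen with earlier results of these data known. Genes named follow gap order, adjacency, the largest differences between cattle and goats, the widest sheep ranges and the values beside the 4-fold limit, and 2 identifiers are printed in each direction. Gene sequences were not used here.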

Additional observations from a re-analysis of the deposited data

How the results depend on the processing

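The number of genes set apart in sheep was 64 (49 higher, 15 lower). It was 117 with a 3-fold and 34 with an 8-fold threshold, and 98 with a minimum CPM of 1 and 29 with a minimum of 20. It ranged from 65 to 83 without each library in turn. The 15 lower genes became 25 without goat replicate C, 23 without sheep replicate A and 23 without sheep replicate C, 39 with the 3-fold threshold, 31 with a minimum CPM of 1, 5 with a minimum of 20, 9 with the 8-fold threshold and 9 with CPM of the library total. Divided by exon length, with the minimum of 5 CPM then applied per kilobase, 54 genes passed, 48 higher and 6 lower, of which 34 were among the 64. RLE size factors gave 64, with 62 of the same genes, and CPM of the library total gave 47, with 43. An exon score relative to the shorter list and the removal of joined sheep models were chosen after seeing the data, and gave 53 and 55.

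Of the members, 28 differed between cattle and goats. It was 20 of 48 where cattle and goat libraries alone met the filter, a setting chosen after seeing the data. The count was 4 with a CPM over 1 in every library (25 genes tested), 16 with a 2-fold threshold, 29 with DESeq2, 25 with exon length as an offset and 22 to 30 without each library in turn. Over all genes the share called was 52.7% in the main fit. It was 50.8% with a CPM over 1 in every library, 24.6% with the 2-fold threshold and 56.8% with DESeq2. With the offset it was 51.3%, and without each library in turn 42.5% to 56%. The 17 neighbours called in sheep became 30 of 244 with 2 genes on each side (12.3%, against 12% of all genes). They were 9 to 18 without each library in turn, where the share over all genes was 8.89% to 13.3%. The cause of these moves was not tested. Under the stricter filter fewer members were tested, and a smaller share of them was called (16%, against 43.8% in the main fit). With the replicate block, 27 members (42.2%, against 51.8% of all genes) and 14 neighbours (11.3%, against 11.3%) were called. Equal letters mark different animals. Libraries of different species were correlated on the deviations of their log2 CPM from the mean of their species. These correlations averaged, for same-letter libraries, -0.07 for cattle and goats, -0.06 for cattle and sheep and 0.19 for sheep and goats. Those of libraries with different letters averaged 0.03, 0.03 and -0.10. Deviations within a species cancel out in each gene, so these averages largely follow from the same-letter ones and are no separate evidence. Whether equal letters in sheep and goats share a step of handling was not tested.

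At 3 counts a library reaches 0.0814 to 0.218 CPM, so levels under that were not detectable, and 3 animals per species limit each comparison.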

Other observations

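Besides the 64 genes, 3 met the limits on fold and level and were left out by the rule, all higher in sheep. One, on cattle chromosome 11 from 72504307 to 72508662, was at 72.2, 77.5 and 49.6 CPM in sheep and had 0 counts in the cattle and goat libraries. The exons of another gene covered 100% of its exon length in cattle, 96.2% in goats and 0% in sheep. One, on chromosome 18 from 25703200 to 25722420, was at 170.3, 148 and 113 CPM in sheep, between 10.4 and 13.4 CPM in cattle and between 7.61 and 8.78 CPM in goats, with 59.0% of its goat exon length covered. The third, on chromosome 23 from 25141525 to 25162882 and so inside the region left out, was at 678, 207 and 527 CPM in sheep, at most 1.45 CPM in cattle and at 17.8, 1.67 and 4.36 CPM in goats. That region held 52 of the genes tested.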
